A study of Mus musculus with 8 samples.

Results

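Myoglobin (Mb) and lactate dehydrogenase B (Ldhb) were the members of a list of 10 oxidative metabolism genes that the array carried. They were chosen as the probes annotated to these symbols, and they were 2 of the 22 features printed on the array. Each feature had 6 probes, 1 spot per probe, so the pair held 12 of 132 probes and 96 of the 1056 gene spots of all 8 arrays. Mb (Entrez gene 17189) had the probes numbered 85 to 90, in column 3 of the grid, and lies on the minus strand at chr15:77015487-77050668 of GRCm38.p6. Ldhb (Entrez gene 16832) had the probes numbered 91 to 96, in column 13, and lies on the minus strand at chr6:142490249-142507957. The sources used here do not give the part of each transcript that the probes bind.

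Myoglobin is the oxygen-binding haem protein of muscle cells and is known for its high level in slow and other oxidative fibres and in heart. Lactate dehydrogenase interconverts pyruvate and lactate and is a tetramer of A and B subunits. The B subunit, the product of Ldhb, is the form typical of heart and slow muscle, while the A subunit is typical of fast glycolytic muscle. Ldha was not on the array, and neither was any other of the 8 genes of a glycolytic list.

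All RNA came from CD-1 mice aged 4 to 5 weeks, and no other treatment or genotype is given. The slow muscle was the soleus and the fast muscle was the flexor digitorum brevis (FDB), a flexor of the toes. RNA was either amplified with an amino allyl kit that yields labelled cRNA, or left un-amplified, with 10 micrograms of total RNA copied into labelled cDNA from an oligo(dT) primer. Each array set an RNA in the dye Cy3 against another in Cy5. In the dye-swap experiment 2 arrays per pair set fast against slow RNA of the same kind with the dyes exchanged. In the loop experiment the 4 RNAs, each muscle with and without amplification, were compared around a circle of 4 arrays. The number of animals is not in the labels, so p-values measure the spread between these arrays, which may be technical.

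The promoters of the members are shown because myoglobin and Ldhb are compared as oxidative genes throughout, and their upstream sequences differ. Each window runs from 250 bases before to 50 bases after a RefSeq transcript start on GRCm38.p6, on the gene's own (minus) strand, 5′ to 3′. Mb had 3 such windows, of which the most downstream is printed (chr15:77022678-77022977), and Ldhb had 1 (chr6:142507908-142508207). Capitals mark matches on either strand to the E-box CANNTG, the CACCC box, the CCAAT box (ATTGG when read from the other strand), TATAAA and the GC box GGGCGG.
Mb: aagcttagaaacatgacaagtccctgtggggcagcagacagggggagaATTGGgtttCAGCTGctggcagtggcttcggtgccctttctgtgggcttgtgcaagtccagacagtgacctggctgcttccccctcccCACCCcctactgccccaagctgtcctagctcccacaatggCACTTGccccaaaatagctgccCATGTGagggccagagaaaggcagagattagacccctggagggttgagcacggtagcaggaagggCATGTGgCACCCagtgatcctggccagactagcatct
Ldhb: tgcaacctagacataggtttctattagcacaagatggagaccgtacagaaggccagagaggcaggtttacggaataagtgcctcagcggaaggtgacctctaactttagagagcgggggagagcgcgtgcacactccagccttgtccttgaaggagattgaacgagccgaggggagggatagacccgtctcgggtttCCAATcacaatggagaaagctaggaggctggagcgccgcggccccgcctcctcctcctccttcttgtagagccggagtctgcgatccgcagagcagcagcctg
The printed Mb window held 4 E-boxes, 2 CACCC boxes and 1 CCAAT box, with no overlap between them, and the Ldhb window held 1 CCAAT box. Neither printed window held TATAAA or GGGCGG. The next Mb window upstream held 3 E-boxes, 1 CACCC box and 1 CCAAT box, and the most upstream one held 2, 0 and 1. Among all 32851 windows of this table, 72.3% held an E-box, 57.5% a CACCC box, 37.4% a CCAAT box, 13.6% TATAAA and 35.7% GGGCGG. The Mb window was 58.3% G and C with 2 CpG pairs, and the Ldhb window was 57.3% G and C with 17, against medians of 52.7% and 7 over all windows. The arrays measured RNA only, so these letters are context and were not related to any value.

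Of the 1056 gene spots, 848 (80.3%) passed the image software's marks in each channel. The dye-swap arrays with scanner files labelled amplified, called the first pair, were dim. Their median signal over background was 2.00 to 4.88 per channel, against 87.5 to 395 in the second pair, with files labelled un-amplified. The labels of these pairs are in doubt. In the authors' table, the columns of either pair hold the ratios of the other pair's scanner files, for 99.2% to 100% of the listed values at a tolerance of 0.0003 natural-log units. Results that separate amplified from un-amplified RNA are therefore given with both labellings. The fast against slow comparison by replicate ratios does not use this label. A fit of all 8 arrays, given as an alternative, does use it, with the scanner labels unless stated. As a check of the muscles, 2 of the 3 slow contractile genes on the array (Myh7 and Tnnc1) were lower in fast muscle, where 14.3% of all features were lower. The third, Tnni1, did not pass (-0.71, limma adjusted p = 0.343). Of the 5 fast contractile genes Myh1 was higher, where 9.52% of all features were higher. Myh4, Mylpf, Tnnc2 and Tnni2 did not pass (limma adjusted p = 0.587 to 0.942). Pvalb, which buffers calcium in fast fibres, was higher as well. The array held Myh6 as its only marker of heart and smooth muscle (1 of 4) and Mgp as its only marker of connective tissue (1 of 4), and neither passed the test on the replicate ratios (limma adjusted p = 0.343 and 0.942). In the fit of all 8 arrays, which counts each array on its own, Myh6 did pass and was lower in fast muscle, like Ldhb (-1.24, adjusted p = 0.0363). The part of Myh6 in the Ldhb result was not tested. Markers of blood, endothelium, nerve, fat and immune cells were not on the array, so their part in any result was not tested.

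Mb gave usable spots on every array, 42 of 48 in all, and Ldhb gave 38 of 48. On the dim first pair, the Mb signal stood 7.46 to 9.78 times above background in Cy3 (fast) and 20.1 to 32.5 times in Cy5 (slow) on the first array. On the array with exchanged dyes it stood 24.6 to 42.8 times above background in Cy3 (slow) and 14.5 to 31.0 times in Cy5 (fast). All 12 Mb spots of that pair were usable. In the second pair Mb stood between 48.4 and 729 times above background, yet 6 of its 12 spots were marked as poor by the image software. The marked spots had ratios close to the unmarked ones, from -1.27 to -1.06 as log2 fast/slow on the first array of that pair, where the unmarked spots had a mean of -1.11, and 0.86 and 0.87 on the second, where the unmarked ones had 0.81 to 0.88.

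Ldhb was at background in fast muscle on the first array of the dim pair. Its 6 Cy3 (fast) signals there were 0.910 to 1.07 times the background and its Cy5 (slow) signals 1.27 to 2.37 times, and all 6 spots were marked empty. With the dyes exchanged it stood 3.48 to 4.84 times above background in Cy3 (slow) and 2.79 to 3.84 times in Cy5 (fast), and all 6 spots were usable. In the second pair Ldhb was bright in each channel. Slow muscle gave 514 to 1049 times background in Cy5 and 213 to 621 times in Cy3, and fast muscle gave 52.5 to 111 times in Cy3 and 74.2 to 124 times in Cy5. The plot of signal over background shows that Ldhb thus had a dye-swap ratio in both dye orientations in the second pair only. Over the dye-swap channels the mean log2 signal was 14.58 ± 0.31 (SD, n = 8 channels) for Mb and 11.42 ± 1.03 (SD, n = 6 channels) for Ldhb. These signals come from different probes and are not set against each other.

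**Figure D1:**
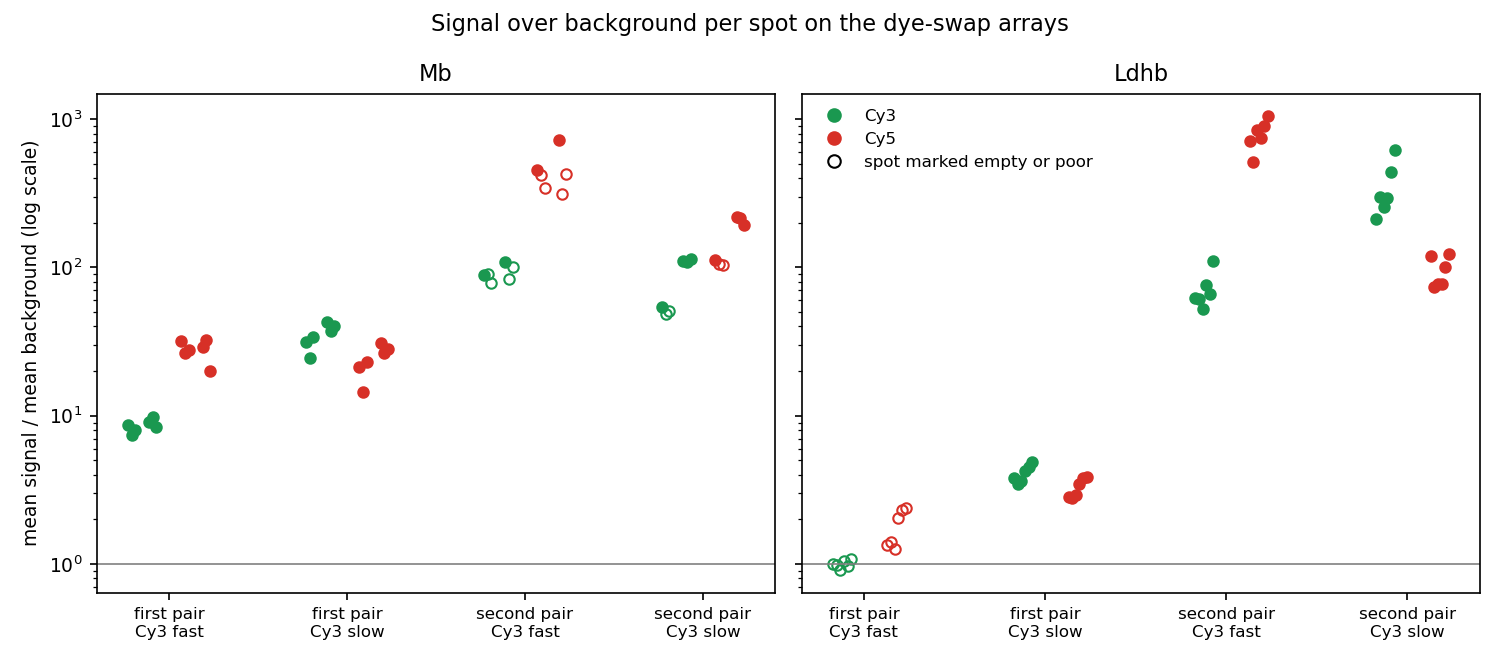
Mean spot signal divided by mean local background (log scale) for each of the 6 spots of Mb (left) and Ldhb (right) on the 4 dye-swap arrays, with Cy3 in green and Cy5 in red. Open circles are spots that the image software marked empty or poor, and the grey line is a signal equal to the background. All 6 Ldhb spots of the first array are open, with Cy3 (fast) at 0.910 to 1.07 times background.

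On the loop arrays, whose signals are integrals over the spot, Mb gave integrals from 1177590 to 10408501 and 24 of 24 usable spots. Of these, 1 held saturated pixels, with a fraction of 0.894 unsaturated, in row 1 of the array that set amplified against un-amplified slow RNA. Usable Ldhb spots gave integrals from 68722 to 1205384. Of the 24 Ldhb loop spots 4 were marked, 1 on the array of slow un-amplified against fast amplified RNA and 3 on the array of fast un-amplified against slow amplified RNA. Of these 3, 2 had a listed Cy5 (slow amplified) integral of 0 beside Cy3 integrals of 163111 and 328766, and the third was listed at 0 in both channels.

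Fast and slow muscle were compared first, the question named in the title of the series. A spot's log2 ratio was turned so that it reads fast over slow, the usable spots of a gene were averaged, and the median over the features of an array was subtracted. For Mb, the first pair gave -0.71 ± 0.29 (SD of 6 spots) and -0.81 ± 0.10 (6 spots). The second pair gave -1.11 ± 0.15 (2 spots) with fast RNA in Cy3 and 0.85 ± 0.03 (4 spots) with fast RNA in Cy5. The arrays of the first pair lay on the same side of 0, and those of the second pair lay on opposite sides. Without centring the second pair gave -0.10 and 0.46, since its arrays were shifted by 1.00 and 0.40 on the log2 scale. Averaging each pair over its dyes gave an Mb log2 fast/slow ratio of -0.76 in the first pair (1.69-fold lower in fast muscle) and -0.13 in the second (1.09-fold lower). The loop gave -0.93 (1.90-fold lower), which was -0.03 with loess and -0.46 with dim features left out. All 3 replicate ratios were below 0 after centring, and without it the second pair gave 0.18. The second pair also left a dye term of -0.98 for Mb, the second lowest of 21 features after Acta1 (-1.23). In the first pair and the loop the Mb dye term was 0.05 and -0.49.

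For Ldhb, the first pair gave -0.48 ± 0.17 (SD of 6 spots) on the array with fast RNA in Cy5 and no usable spot on the other. The authors' table lists 5 Ldhb ratios of Cy3 (fast) over Cy5 (slow) for that other array, between 0.254 and 0.570. The second pair gave -2.02 ± 0.05 and -2.31 ± 0.18, each over 6 spots. The arrays of the second pair lay close together and more than 1 log2 unit below the first-pair array. Averaged over its dyes, the second pair gave an Ldhb log2 fast/slow ratio of -2.17 (4.50-fold lower in fast muscle), the second lowest of 21 features after Myh7. The loop gave -1.76 (3.38-fold lower), also the second lowest of 21 after Myh7. The Ldhb dye term was 0.15 in the second pair and -0.17 in the loop, smaller than its fast/slow ratio in each.

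**Figure D2:**
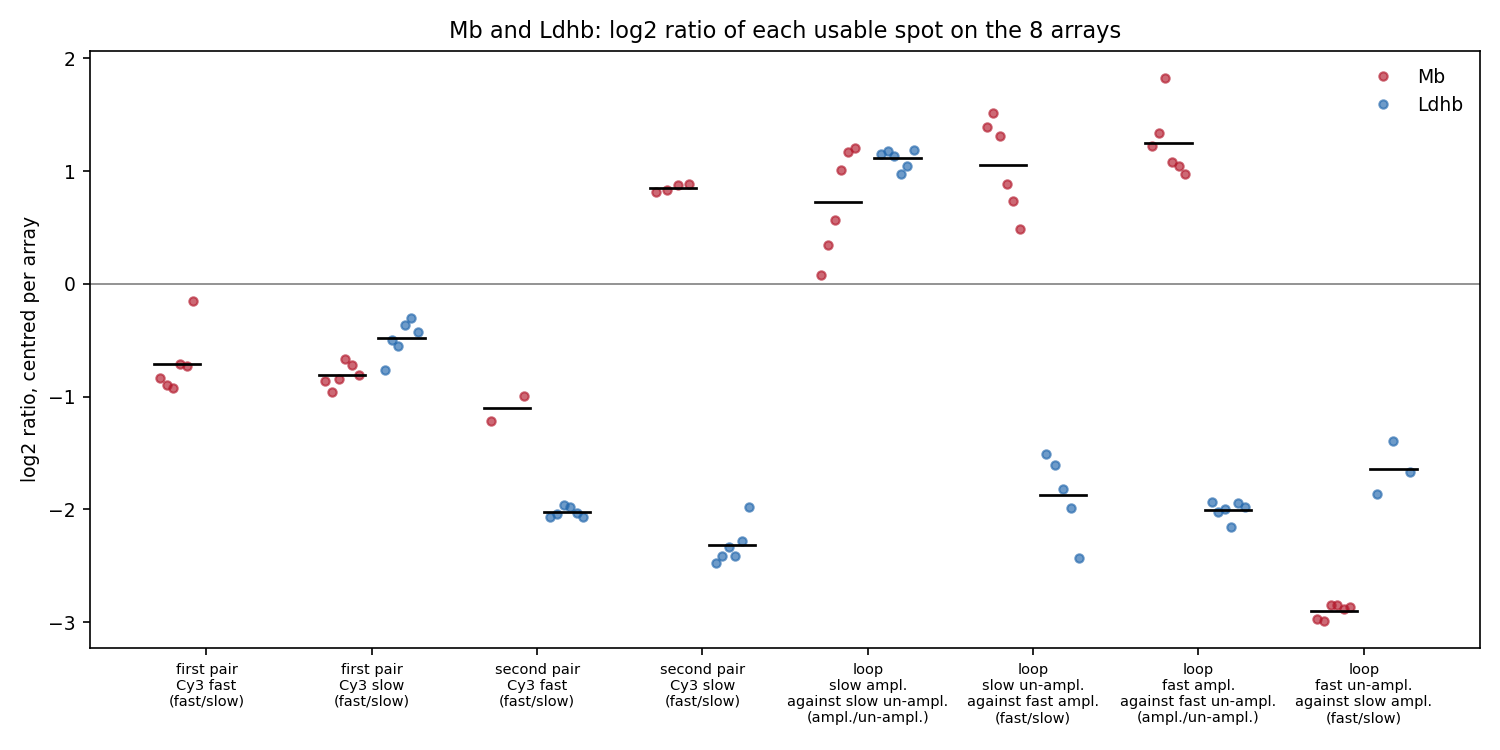
Log2 ratio of every usable spot (points) and their mean (black line) for Mb (red) and Ldhb (blue) on each of the 8 arrays, centred on the median feature of the array. Ratios read fast over slow, or amplified over un-amplified on the arrays of 1 muscle, and 2 of the loop arrays differ in muscle and amplification at the same time. Mb sits on both sides of 0 in the second pair (-1.11 and 0.85), and Ldhb sits at -2.02 and -2.31 there.

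In the limma fit over all features, the Ldhb ratio was -1.96 ± 0.29 on the log2 scale, or 3.90-fold lower in fast muscle (SD, n = 2 replicate ratios, standard error 0.56, 95% interval -3.10 to -0.83, adjusted p = 0.00667). It was 1 of the 5 of 21 tested features that passed (23.8%), and 1 of the 3 that were lower in fast muscle (14.3%). Mb had a mean of -0.60 ± 0.42 (SD, n = 3 replicate ratios, standard error 0.46), and its interval of -1.53 to 0.32 includes 0 (limma adjusted p = 0.408). The Mb mean corresponds to 1.52-fold lower in fast muscle. All 3 Mb replicate ratios lay below 0 after centring, the direction of the Ldhb mean, though the second pair gave 0.18 without centring. The Mb difference did not exceed the spread that the fit pooled over the features. The median over all 21 features was -0.05. In whole muscle, fewer cells of a type and less RNA per cell cannot be told apart.

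The Ldhb call rests on 2 ratios and on the pooled spread. With each feature's own variance its mean of -1.96 had an adjusted p of 0.346, and with loess in place of centring -2.01 had 0.110. In a limma fit of all 8 arrays with the scanner labels Ldhb gave -1.78 (adjusted p = 0.0134, 33.3% of features called). This fit counts the arrays of a dye-swap pair separately, so its p-values treat technical swaps as replicates. It also uses the amplification labels, and its ratio over both kinds of RNA was not computed with those of the authors' table. The Ldhb ratio became -1.68 (adjusted p = 0.121) without the second-pair array with fast RNA in Cy3. On the other second-pair array, 2 channel files carry a dye in the header that differs from their file name. The header was used, and with it the authors' ratios matched that array, as above. With the header's dyes Myh7, Tnnc1 and Tnni1 had log2 Cy3/Cy5 ratios of 2.83, 1.18 and 1.11 there, with slow RNA in Cy3. On the pair's array with fast RNA in Cy3 they had -3.34, -1.68 and -1.06. These 3 slow genes were thus lower in fast muscle on both arrays, and the file names' dyes would turn them round on the former. Taking the file names' dyes instead, the second pair would give Ldhb 0.15 and Mb -0.98, and the Ldhb mean would be -0.81 (adjusted p = 0.546).

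The list of oxidative genes had 1 of its 2 measured members lower in fast muscle, Ldhb, where 14.3% of all features were lower. Its median log2 fast/slow ratio was -1.28 against -0.05 over all features. These 2 members are Mb and Ldhb themselves, so the count and the median repeat the values above and are no separate result. In the slow contractile list 2 of 3 measured genes were lower, with a median of -1.35. In the fast contractile list 1 of 5 was higher, where 9.52% of all features were higher, with a median of 0.47.

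The difference between the members was then taken within each replicate. On the arrays of fast against slow RNA where both had a ratio, Mb minus Ldhb was -0.33 on the first-pair array, 0.92 and 3.17 in the second pair, and 2.92 and -1.26 in the loop. The sign was therefore not the same on all arrays. On these loop arrays amplification differed together with muscle, in opposite directions, so their values are not fast/slow differences alone. Averaged over dyes, Mb minus Ldhb was 2.04 in the second pair (a 4.12-fold larger fast/slow ratio for Mb) and 0.83 in the loop (1.78-fold). The mean of 1.44 ± 0.86 (SD, n = 2) was above 0 in 2 of 2 replicates, and the exact two-sided sign-flip permutation test gave p = 0.5, the smallest p that 2 replicates allow. The same test was repeated under 12 alternatives, and no other kind of test of this difference was run. With the authors' ratios the exact two-sided sign-flip permutation test gave p = 0.25 (mean 1.07, n = 3), the lowest p of the alternatives. The mean was 0.51 with marked spots kept (n = 3). Ldhb loop integrals of 0 were then set to the lowest positive one of their channel. The mean turned to -0.15 with the dyes of the file names.

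Amplified and un-amplified RNA met on the same array in the loop only. In slow muscle, amplified over un-amplified RNA gave a centred log2 ratio of 0.73 ± 0.47 (SD of 6 spots) for Mb and 1.11 ± 0.09 (6 spots) for Ldhb. In fast muscle it gave 1.25 ± 0.31 (6 spots) for Mb and -2.01 ± 0.08 (6 spots) for Ldhb. Mb was higher in amplified RNA in both muscles after centring, though without it the array of slow muscle gave -0.21 and that of fast muscle 0.74. In turn Ldhb was higher in slow and lower in fast muscle (0.17 and -2.52 without centring), and on the fast array the spots of the genes did not overlap. After the loop's dye term was taken out, Mb was 2.33-fold higher in amplified RNA in slow muscle (log2 1.22) and 3.34-fold higher in fast muscle (log2 1.74). Ldhb was 2.43-fold higher in slow muscle (log2 1.28) and 3.58-fold lower in fast muscle (log2 -1.84).

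In limma's fit of the 4 loop arrays, which had terms for dye, muscle and amplification, Mb was 2.79-fold higher in amplified RNA (log2 1.48, standard error 0.52, 95% interval 0.41 to 2.56, adjusted p = 0.0257). It was 1 of 9 of 21 features that passed (42.9%) and 1 of 6 that were higher (28.6%). Ldhb had a mean of -0.28 with an interval of -1.35 to 0.79 (limma adjusted p = 0.692), a mean of values with opposite signs. The median over all features was 0.08. What this fit takes as error is how far the amplification ratios of the muscles lie apart, pooled over the features, since the loop has no replicate. Both members thus had a standard error of 0.52. With each feature's own variance it was 0.18 for Mb and 1.10 for Ldhb, so the Ldhb interval above is narrower than its own values give. The Mb value was relative to the array's median feature, and without centring it was 0.85 (adjusted p = 0.119). It was 0.20 (adjusted p = 0.629) with loess, and 1.03 (adjusted p = 0.117) when dim features were left out.

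**Figure D3:**
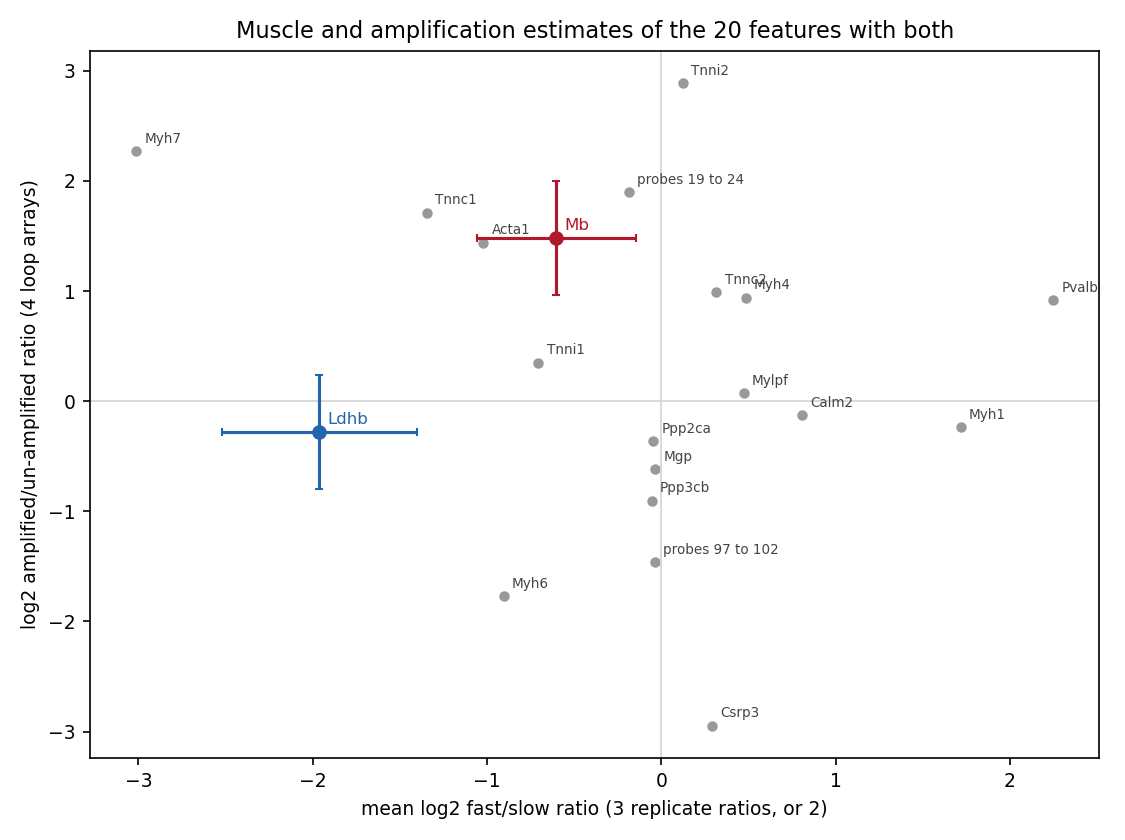
Mean log2 fast/slow ratio (horizontal) against log2 amplified/un-amplified ratio in the loop (vertical) for the 20 features that have both, with Mb in red, Ldhb in blue and the other features in grey. Bars on the members are the limma standard error. Mb lies at -0.60 and 1.48 and Ldhb at -1.96 and -0.28.

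Within the loop the level of each gene in the 4 RNAs follows from the 4 arrays. Mb stood highest in slow amplified RNA (1.07 on the log2 scale about its own mean), then in fast amplified (0.41), slow un-amplified (-0.15) and fast un-amplified RNA (-1.33). The steps between neighbours were 0.67, 0.56 and 1.18, and the whole span was 5.30-fold. Mb stood lower in fast than in slow muscle within each kind of RNA, and higher in amplified RNA within each muscle, but with loess its fast/slow ratio in amplified RNA turned to 0.34. Ldhb stood highest in slow amplified RNA (1.52), then in slow un-amplified (0.24), fast un-amplified (0.04) and fast amplified RNA (-1.80). Its steps were 1.28, 0.20 and 1.84, and the whole span was 9.96-fold, between the amplified RNAs of slow and fast muscle. The step of 0.20 between the un-amplified RNAs was smaller than the SD between Ldhb spots on the array of slow un-amplified against fast amplified RNA (0.36). Each RNA has 1 estimate here, so no spread between replicates stands behind these steps.

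**Figure D4:**
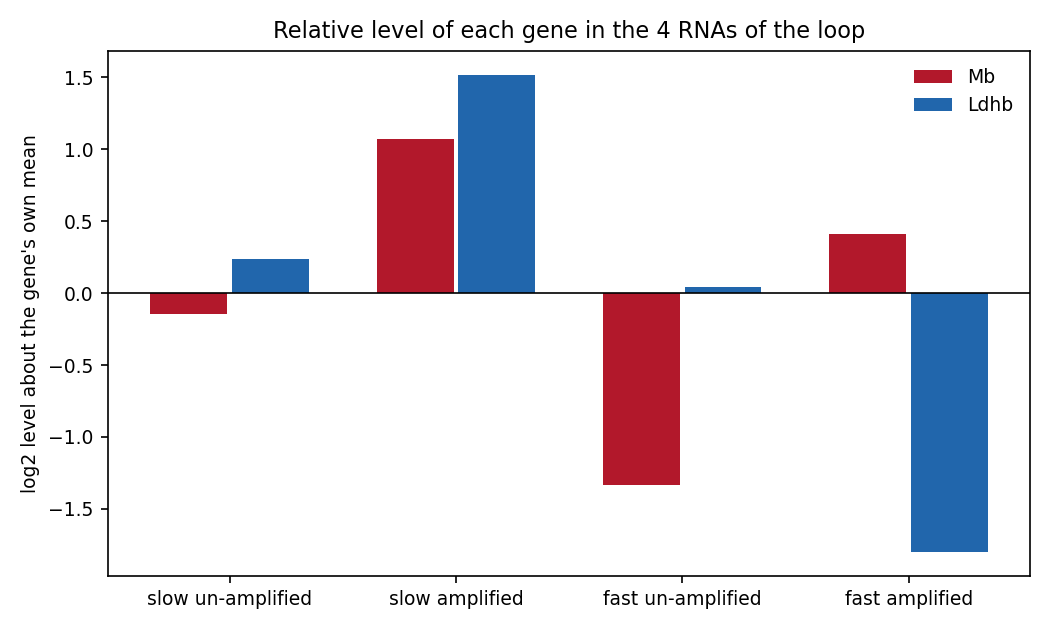
Level of Mb (red) and Ldhb (blue) in each of the 4 RNAs of the loop, as log2 about the gene's own mean over these RNAs, from 1 array per link and without replicates. Ldhb runs from 1.52 in slow amplified to -1.80 in fast amplified RNA and lies at 0.24 and 0.04 in the un-amplified RNAs, while Mb runs from 1.07 in slow amplified to -1.33 in fast un-amplified RNA.

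The loop gave a log2 fast/slow ratio for Ldhb of -3.32 in amplified RNA (9.96-fold lower) and -0.20 in un-amplified RNA (1.15-fold lower). For Mb the corresponding ratios were -0.67 (1.59-fold lower) and -1.18 (2.27-fold lower). They were 0.34 and -0.41 with loess, and -0.09 and -0.82 with dim features left out. The difference between the kinds of RNA, amplified minus un-amplified, was -3.12 for Ldhb, in absolute size the highest of 21 features, and 0.52 for Mb, the eighth from the lowest. Mb minus Ldhb was therefore 2.65 in amplified and -0.99 in un-amplified RNA of the loop. The Ldhb ratios within each kind of RNA lean on the array of fast un-amplified against slow amplified RNA, which kept 3 of its 6 spots. The Ldhb difference of -3.12 uses only the loop arrays of 1 muscle, with all 6 Ldhb spots usable on each. With the marked spots kept, the loop gave Ldhb -2.29 in amplified and 0.71 in un-amplified RNA. Integrals of 0 were then set to the lowest positive integral of that channel on the array. The marked Ldhb spots of the array of fast un-amplified against slow amplified RNA thereby read 0.54 to 3.43. These 2 values thus rest in part on filled-in numbers.

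By the scanner labels, the dye-swap pairs gave Mb -0.76 in amplified and -0.13 in un-amplified RNA, a difference of -0.63 and opposite in sign to that of the loop. Over the pairs and the loop the Mb difference was -0.06 (95% interval -2.20 to 2.09, limma adjusted p = 0.992), and 0 of 13 tested features passed (0%, and 0 at an unadjusted p below 0.05). Within amplified RNA the Mb ratio was -0.71 (adjusted p = 0.717, with 0 of 13 features called and 2 below 0.05 unadjusted). Within un-amplified RNA it was -0.66 (adjusted p = 0.463), and Ldhb had -1.18 (adjusted p = 0.407), with 0 of 20 called and 3 below 0.05 unadjusted. The Ldhb values behind that last mean were -2.17 in the second pair and -0.20 in the loop, which are far apart.

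With the labels of the authors' table the second pair becomes the amplified one. Ldhb then had -2.17 and -3.32 in amplified RNA, with a mean of -2.74 (limma adjusted p = 0.00266), 1 of 4 of 20 features called (20%). The Mb difference between the kinds of RNA became 0.58 (95% interval 0.22 to 0.94, limma adjusted p = 0.0525), with 2 of 13 features called (15.4%) and Mb not among them. Under this labelling a limma fit of all 8 arrays, which takes in the lone first-pair array of Ldhb, gave an Ldhb fast/slow ratio of -2.55 in amplified RNA (adjusted p = 0.000153, 33.3% called) and -0.36 in un-amplified RNA (adjusted p = 0.664, 0% called). The difference of -2.19 (95% interval -3.47 to -0.92) passed, with an adjusted p of 0.0326, among 4 of 21 features called (19%). This fit counts the arrays of a dye-swap pair separately. With the scanner labels the same fit gave a difference of -0.53 (95% interval -2.59 to 1.54, adjusted p = 0.963). Whether the Ldhb fast/slow ratio differed between the kinds of RNA thus depended on which labels of the dye-swap pairs were taken. The un-amplified pair under the table's labels is the dim one, with Ldhb 2.79 to 4.84 times above background on the array that was used.

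On some arrays ratios also varied with the place of a spot on the grid. Mb was printed in rows 1 to 3 and again in rows 7 to 9. On the array of amplified against un-amplified slow RNA the log2 ratios were 0.08 to 0.57 in the first rows and 1.01 to 1.20 in the others. On the array of slow un-amplified against fast amplified RNA they were 1.31 to 1.51 and 0.49 to 0.88, with Cy3 integrals of 1452183 to 2071132 in the first rows and 4514720 to 6631454 in the others. These sets of rows did not overlap, and on the array of fast amplified against fast un-amplified RNA they did not overlap either (1.22 to 1.83 and 0.98 to 1.08). On the array of fast un-amplified against slow amplified RNA the ratios were -2.99 to -2.85 and -2.88 to -2.85, and the sets overlapped. Ldhb was printed in rows 4 to 9, and on the array of slow un-amplified against fast amplified RNA its ratio went from -1.51 in row 4 to -2.43 in row 9. On the loop arrays of 1 muscle its ratios stayed closer together. They were 0.97 to 1.19 in slow muscle and -2.16 to -1.94 in fast muscle. The part of grid position in the comparisons was not tested.

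Across the arrays, the feature most like Mb by the root mean square difference of centred log2 Cy3/Cy5 was Acta1, skeletal muscle actin (0.55, Pearson r = 0.93 over 8 arrays). It was followed by the unnamed feature of probes 19 to 24 (0.81, r = 0.85) and Tnnc2, the fast troponin C (0.89, r = 0.72). For Ldhb the most alike feature was Tnni1, the slow troponin I (0.90, r = 0.91 over 7 arrays), followed by Myh6, a cardiac myosin heavy chain (1.64, r = 0.59 over 6 arrays), and Ppp2ca, a catalytic subunit of protein phosphatase 2A (1.65, r = 0.35 over 7 arrays). Mb itself was the ninth of 19 features in likeness to Ldhb (2.13, r = 0.11 over 7 arrays). These values are descriptions, since the points share RNAs and dyes.

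**Figure D5:**
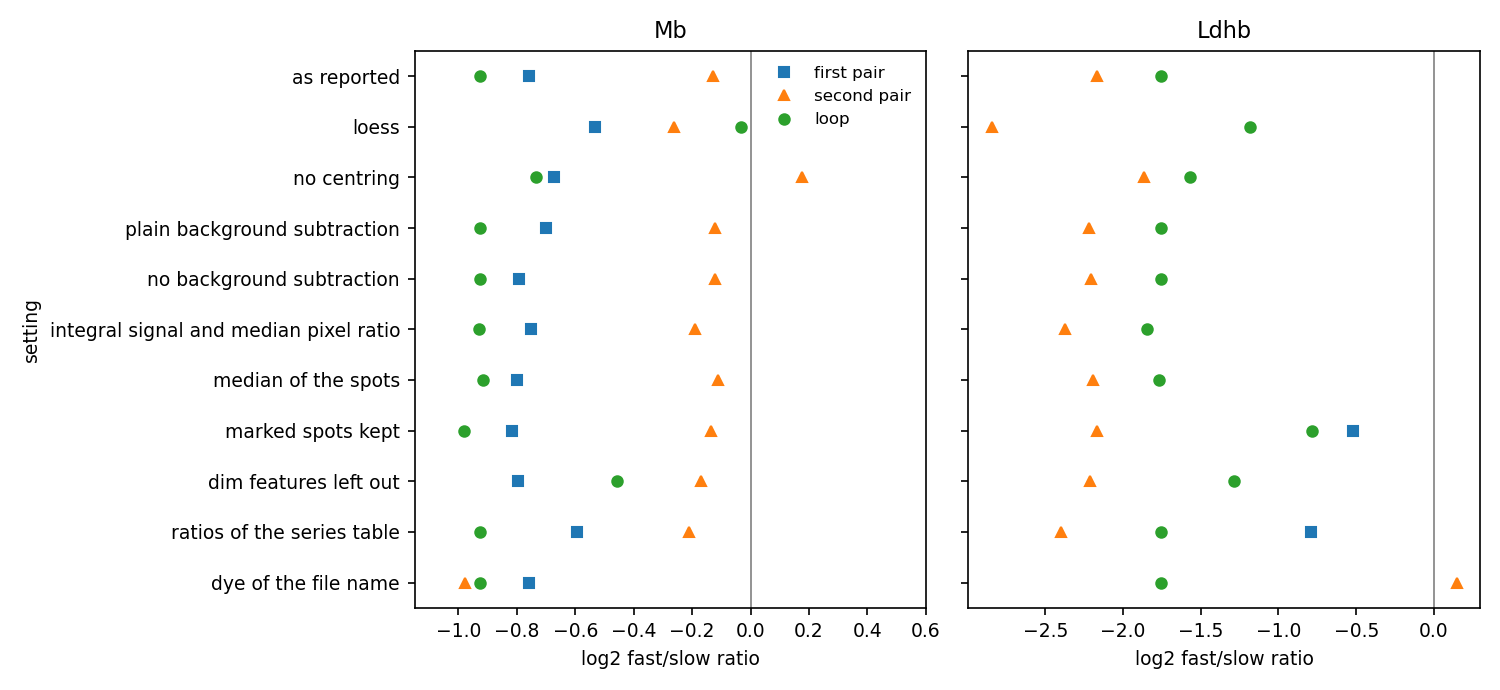
Log2 fast/slow ratio of Mb (left) and Ldhb (right) in the first pair, the second pair and the loop, as reported and under 10 other ways of processing. The Mb ratio of the second pair stays within 0.3 of 0 except with the dyes of the file names (-0.98), and the Ldhb ratios stay below 0 except for the second pair with those dyes (0.15). The horizontal axes differ between the panels.

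Over the 23 alternatives tried, those that left out an array or a replicate included, Mb had no call and a mean below 0 in each, from -0.89 to -0.28. Ldhb had a mean below 0 in the 21 of these that gave it a value, from -2.41 to -0.81, and passed the test in 17 of them. These passes are not separate results, since all of them reuse the same arrays. Some come from the fit that counts the arrays of a dye-swap pair separately, or from that fit with an array left out. Leaving out the first pair removed no Ldhb ratio, and the mean stayed at -1.96. The first pair gave Ldhb a ratio over both dyes only when marked spots were kept (-0.52) or when the authors' ratios were used (-0.79). Both lay above the second pair's values under the same settings, -2.17 and -2.40.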

How the data were processed

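The members and the gene lists were chosen with earlier results of these data known. Per the file headers, the dye-swap arrays hold per-spot pixel intensity (ImaGene 5.5) beside the background intensity, the signal areas and the background SDs deposited as signal values, and codes for empty or poor spots. The loop sheets hold integral intensity and the deposited fraction of unsaturated pixels, made by software that the sources used here do not name. The authors deposited a table of Cy3/Cy5 ratio values, and matching them to the spots placed all 132 probes. Dye-swap signals were corrected by normexp (offset 50), marked spots were left out, saturated spots were kept, spots were averaged as log2 ratios, and arrays were centred on the median feature. The tests used limma 3.58.1 in R 4.3.3, two-sided, over every feature with at least 2 values, with Benjamini-Hochberg adjustment at 0.05. The arrays of a dye-swap pair were counted as 1 replicate. The steps were tested on simulated data. Loop integrals of 0 were set to the lowest positive integral of their channel on the array, which affects the results with marked spots kept. Alternatives were loess (span 0.3), no centring, other background corrections and signals, marked spots kept, dim features left out (within 2 background SDs, or below the 5th percentile of loop integrals), the authors' ratios, each feature's own variance, other labels and dyes, and leaving out arrays. Promoters are from RefSeq (GRCm38.p6), and both members matched. Proteins were not used here. The named features are the members, the 3 most alike to each over at least 6 arrays and the members of the lists.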

Additional observations from a re-analysis of the deposited data

Results flagged for a closer look

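In the loop, the Ldhb ratio of amplified to un-amplified RNA had opposite signs in the muscles, above 0 in slow and below 0 in fast muscle. Fast minus slow, the log2 amplified/un-amplified ratio differed by -3.12, and this difference was not tested, since it rests on 1 loop. When all 8 arrays were fitted together with the labels of the authors' table, the Ldhb fast/slow ratio differed between amplified and un-amplified RNA by -2.19 (limma adjusted p = 0.0326). That fit was chosen after the data were seen, and it counts the arrays of a dye-swap pair separately.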

How the results depend on the processing

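The number of features called between fast and slow muscle was 5 of 21 as reported, 1 with loess, 0 with the dyes of the file names and 0 with each feature's own variance. It was 5 of 20, 0 of 13 and 1 of 14 tested without the first pair, the second pair and the loop. Features left with fewer than 2 ratios, Ldhb and Myh7 among them without the second pair or the loop, dropped out of the test. The fit of all 8 arrays called 7, and 4 to 8 with an array left out, the highest without the loop array of slow muscle. Between amplified and un-amplified RNA it was 9 as reported, 0 with loess, 4 without centring, 4 with marked spots kept and 0 with own variances. The fit of all 8 arrays called 11, and 10 to 14 with an array left out, the highest again without the loop array of slow muscle. For the difference between the kinds of RNA it was 0 of 13, against 2 of 13 with the labels of the table and 4 of 21 with those labels in the fit of all 8 arrays. Within amplified RNA it was 0 of 13, against 1 of 21 in the fit of all 8 arrays and 4 of 20 with the labels of the table. Within un-amplified RNA it was 0 of 20, against 1 of 20 with loess, 3 of 20 without centring and 4 of 21 in the fit of all 8 arrays.

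Ldhb in fast against slow muscle lost its call with loess (-2.01), the dyes of the file names (-0.81) and its own variance (-1.96). It ran from -2.41 to -1.42 with an array left out of the fit of all 8 arrays (-1.78). In that fit it lost its call without the second-pair array with fast RNA in Cy3 (-1.68). Without the second or the third replicate it had no test. Mb minus Ldhb turned to -0.15 with the dyes of the file names and was 0.83 to 2.04 with 1 replicate left out. Mb in amplified against un-amplified RNA lost its call with loess (0.20), no centring (0.85), marked spots kept (1.46), dim features left out (1.03) and its own variance (1.48). It was 1.28 to 1.70 with an array left out of the fit of all 8 arrays. Ldhb in that comparison reversed with loess (0.23). It became -1.05 (adjusted p = 0.0254) without the loop array of slow muscle and 0.71 without that of fast muscle, the lowest and highest values with an array left out of that fit.

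The Mb difference between the kinds of RNA reversed with loess (0.24), no centring (0.049), the labels of the table (0.58) and those labels in the fit of all 8 arrays (0.59). The Ldhb difference moved with loess (-1.89), no centring (-2.69), marked spots kept (-0.68), the fit of all 8 arrays (-0.53) and that fit with the labels of the table (-2.19). With marked spots kept the value is the mean of the loop difference and that of the dye-swap pairs (-0.52 in the first and -2.17 in the second). As reported, the Ldhb difference came from the loop alone. The causes were not tested. Arrays of different groups could not be paired with each other, because the labels carry no replicate numbers for it. The comparison of RNAs within an array is part of every ratio. Signal near background limits Ldhb in the first pair, and marked spots limit it in the loop.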
